A study of Mus musculus with 48 samples.

Results

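The comparison described here asked what 21 days of a low dose of perfluorooctane sulfonate (PFOS), 1 mg/kg/day, did to transcript levels in the gastrocnemius muscle of hCYP2B6-Tg mice. Of the 48 mice of the study, 17 belong to it: 8 given 1 mg/kg/day (4 females and 4 males) and 9 given 0 mg/kg/day (4 females and 5 males), chosen by genotype and dose and compared with sex held apart. All were of the genotype labelled hCYP2B6-Tg, a name for a human CYP2B6 transgene, and all were gavaged, the controls without PFOS. The sources used here do not give the age of the mice, the promoter of the transgene, or whether this line also lacks the mouse Cyp2b genes. The study also held Cyp2b-null mice and a dose of 10 mg/kg/day, which are used below only to show where the low dose in hCYP2B6-Tg mice differed from them. The labels number the libraries of a group as replicates, each taken here as 1 mouse, and p-values measure only the spread between these libraries.

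PFOS is a persistent fluorinated surfactant that binds proteins of the blood and liver and can activate nuclear receptors such as PPARα, which turns on fatty acid oxidation genes, and CAR, which turns on Cyp2b genes in liver. CYP2B6 is a human member of the Cyp2b family of drug-metabolising enzymes, best known from liver. Gastrocnemius is a calf muscle of mostly fast fibres that also holds adipocytes, vessels, nerve and tendon, so a whole-muscle library mixes the RNA of all of these.

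The libraries were of muscle and matched their sex labels. Total counts ran from 11571142 to 15631830 per library, with a median of 13973489. The fast myosin gene Myh4 averaged 66810 ± 7250 CPM (counts per 1e+06 counts; SD, n = 9) in the untreated mice and 66450 ± 7710 CPM (n = 8) in the treated. The albumin gene Alb, a liver marker, had 0 to 19 counts per library, although the extraction text of the labels names liver. In females Xist, the RNA that coats the silenced X, had 1637 to 2402 counts and Y-linked Ddx3y 0; males had 0 to 4 and 1163 to 1926. Within each sex the library numbers of the 2 doses did not overlap, so anything that follows those numbers and the dose cannot be told apart.

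A few libraries stood apart before any comparison was made. Glycam1, a gene of lymph node vessels, had 312 counts in female replicate 4 at 0 mg/kg/day and 0 to 2 in the others. Transcripts of maturing sperm cells appeared in 2 males at 1 mg/kg/day. The protamine gene Prm2, which packs sperm DNA, had 751 counts in replicate 4 and 67 in replicate 1 of that group, and 0 or 1 in the other 15 libraries. Summed over 9 such genes (Prm1, Prm2, Tnp1, Tnp2, Odf1, Akap4, Smcp, Ldhc and Crisp2, chosen after their values were seen), replicate 4 had 3874 counts (253 CPM) and replicate 1 had 290 (18.6 CPM). The other 15 libraries had 0 to 7, and the 31 libraries of the rest of the study 0 to 19. Replicate 4 also had the most genes with a count, 21688, against 18348 to 20186 in the others. Values of the male results led by Atcay, Pdk4, Ucp3 and Ifi27l2a are given below with and without these 2 males.

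No gene passed the test when the sexes were averaged. edgeR's quasi-likelihood test with Benjamini-Hochberg adjustment called 0 of 13914 genes (0%) at an adjusted p under 0.05, and the smallest adjusted p was 0.536. At an unadjusted p under 0.05 there were 720 genes (5.17%), of which 396 (2.85%) were higher and 324 (2.33%) lower at 1 mg/kg/day. limma voom with sample quality weights also called 0 genes. DESeq2 called 13 genes, 8 higher and 5 lower. Within females and within males the quasi-likelihood test again called 0 genes (0% in both). The unadjusted counts were 706 in females (5.07%, 350 higher or 2.52%, 356 lower or 2.56%) and 709 in males (5.1%, 367 higher or 2.64%, 342 lower or 2.46%). The difference between the sexes was past the threshold for 0 genes (0%), with 705 (5.07%) at an unadjusted p under 0.05. Of the summed variation of log2 CPM over the tested genes, sex took 19.7%, dose after sex 5.88% and the sex-by-dose term 5.19%, where 1 of 16 degrees of freedom is 6.25%.

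The size of change that could have been missed depended on the level of the gene. For the median gene the 95% interval of the sexes-averaged change reached 0.25 to either side on the log2 scale, or 1.19-fold. For 9981 of the 13914 genes (71.7%) the whole interval lay within a 1.5-fold change in either direction, and for 12468 (89.6%) within a 2-fold change. Among the 3832 genes between 20 and 100 CPM, 98.6% had an interval within 2-fold, with a median half-width of 0.15. Below 1 CPM only 45.1% of 1365 genes did, with a median half-width of 0.76. A gene of median precision would have needed an estimated change of 1.72-fold to pass alone, and 1.44-fold had 100 genes passed with it. These are sizes of the estimate, and a true change of the same size could still be missed. Within 1 sex the precision was lower: intervals lay within 2-fold for 78.1% of genes in females and 79.8% in males, and for the sex difference for 65.5%. A further 16880 genes had counts but were too scarce to test. They held little of the RNA, since the tested genes had 99.86% of all counts.

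**Figure D1:**
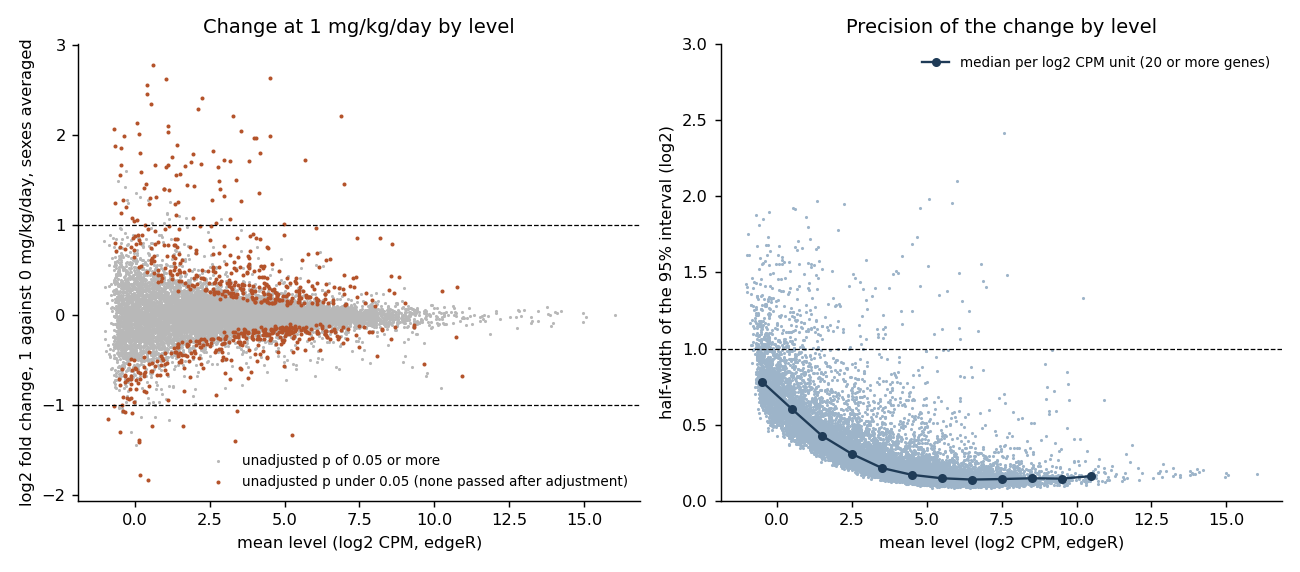
Each point is 1 of the 13914 tested genes, placed by its mean level (log2 CPM). The left panel gives the sexes-averaged log2 fold change at 1 against 0 mg/kg/day, with the 720 genes at an unadjusted p under 0.05 in brown and dashed lines at a 2-fold change; the right panel gives the half-width of its 95% interval, which was widest for scarce genes (median 0.76 below 1 CPM, 0.15 between 20 and 100 CPM).

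Genes of mitochondrial respiration kept close to their control levels. None of the 37 tested subunits of complex I, the entry point of the respiratory chain, passed the test or reached an unadjusted p under 0.05. Their median log2 fold change was -0.03 (all genes -0.003), they ranged from -0.14 (Ndufa12) to 0.08 (Ndufs6), and all 37 intervals lay within 2-fold. The same held for the 15 subunits of complex IV (median -0.04, all within 2-fold), the 15 of complex V, the ATP synthase (median -0.08, all within 1.5-fold), and the 14 of cytochrome c with complexes II and III (median -0.08, all within 1.5-fold). The 13 proteins encoded in mitochondrial DNA had a median of -0.08, and mt-Co1, the catalytic subunit of complex IV, differed by -0.08 ± 0.09 (log2, SE). Mitochondrially encoded transcripts together took 10.3 ± 1.07% of counts at 0 mg/kg/day and 9.84 ± 1.39% at 1 mg/kg/day (exact permutation within sex, two-sided, p = 0.44). Of the 77 tested mitochondrial ribosome genes, none passed and all had intervals within 1.5-fold. Among 23 genes of the citric acid cycle and pyruvate dehydrogenase none passed, the median was -0.08, and 22 had intervals within 2-fold. The exception was Idh2, mitochondrial isocitrate dehydrogenase, at -0.30 with an interval from -1.01 to 0.40. Most of these small averaged differences were downward: 22 of the 23 citric acid cycle genes and 14 of the 15 complex V genes were lower. In males 23 and 15 were lower (medians -0.14 and -0.11), and in females 15 and 13 (medians -0.02 and -0.02). This shared direction was not tested.

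No gene of fatty acid oxidation, a known target of PPARα, passed. Over the 23 tested members the median log2 fold change was -0.14, and 3 reached an unadjusted p under 0.05, all lower: Eci2 (-0.25 ± 0.07), Etfdh (-0.24 ± 0.10) and Acadl (-0.35 ± 0.15). That count was 1 without control female replicate 2, treated female replicate 1 or treated male replicate 4, and 9 without control male replicate 3. Of 25 tested PPAR target genes none passed, 3 were lower and 0 higher at an unadjusted p under 0.05, and the median was -0.15. Leaving out single libraries gave 0 (without control female replicate 2) to 7 lower (without control female replicate 4 or treated male replicate 2). Over all genes, 2.33% were lower at that threshold. Within males 4 of the 23 and 5 of the 25 were lower and 0 higher (over all genes 2.46% lower), with medians of -0.22 and -0.22. Leaving out single libraries gave 1 to 13 and 3 to 9 lower in males. Within females 0 were lower in both lists, with medians of -0.08 and -0.05. For the difference between the sexes no member of either list passed. Acot1, an acyl-CoA thioesterase, was lowest at -1.23 ± 0.48 (edgeR adjusted p = 0.916). Cpt1b, the muscle carnitine palmitoyltransferase that admits fatty acids to mitochondria, differed by 0.07 ± 0.19, and Cd36, a fatty acid carrier of the cell surface, by -0.08 ± 0.16. For Cpt1b the interval, -0.33 to 0.47, lay within 1.5-fold. Its level was low, with 736 counts over the 17 libraries against 51843 for Cd36 and 2570 for Cpt1a. How fully the reads of this gene were counted was not tested.

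Most genes of xenobiotic metabolism, among them the Cyp2b targets of CAR, were scarce or not seen in this muscle, and 8 of the 25 on that list could be tested. Cyp2b9, Cyp2b10, Cyp2b13 and Cyp2b23 had 0 counts in all 17 libraries, as had Cyp2c29, Cyp4a31 and Ugt1a1. Since it is not given whether this line lacks the mouse Cyp2b genes, their 0 counts cannot be laid to the tissue. A count of 0 allows up to 3 counts, or 0.0262 CPM over the 8 libraries at 1 mg/kg/day and 0.0247 CPM over the 9 at 0 mg/kg/day; these floors cover counting error only. Cyp2b19 had 1 count. Cyp4a10 and Cyp4a14, textbook PPARα targets of liver, had 8 and 10 counts in all. Nr1i3, which encodes CAR itself, had 5 counts, and Fgf21, a stress hormone gene, had 8. Human CYP2B6 was not analysed here. Por, the reductase that feeds electrons to all of these P450 enzymes, was testable and differed by 0.20 ± 0.15. Of the 8 tested genes none passed, and the median was 0.27. At an unadjusted p under 0.05, 2 were higher (over all genes 2.85%) and 0 lower. The 2 were Cyp2e1, described below, and Gstm1, a glutathione transferase, at 0.12 ± 0.06. In females Cyp1a1, a P450 induced through the aryl hydrocarbon receptor, gave 1.58 ± 0.63, with 0.495 to 2.32 CPM in controls and 0.934 to 7.35 in treated mice, which overlapped.

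Cyp27a1, the mitochondrial sterol 27-hydroxylase (ENSMUSG00000026170, chromosome 1, 74713574 to 74737892, plus strand, GRCm38), had the smallest sexes-averaged p. Its levels in females were 68.9, 72.1, 63.5 and 77 CPM at 0 mg/kg/day and 104.4, 116.4, 96.3 and 84.9 at 1 mg/kg/day. In males they were 118.04, 104.9, 105.9, 106.6 and 103.0 CPM at 0 and 109.1, 115.9, 109.5 and 129.8 at 1 mg/kg/day. The female groups did not overlap and the male groups did. Here and below, lack of overlap only describes genes named for a small p or after their values were seen. Such genes will often show it, and its share over all tested genes is not given. The averaged log2 fold change was 0.31 ± 0.06 (1.24-fold, edgeR adjusted p = 0.536), made up of 0.51 ± 0.09 in females and 0.11 ± 0.09 in males.

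The other genes of smallest averaged p did not pass either. Slc6a8, the creatine transporter of the cell surface (chromosome X, 73673150 to 73682502, GRCm38), had 140.4, 148.1, 157.8 and 142.3 CPM in control females and 100.2, 113.8, 99.9 and 129.9 in treated females, without overlap. In males the values overlapped, from 139.2 to 153.7 CPM at 0 and from 122.1 to 146.2 at 1 mg/kg/day. The averaged change was -0.27 ± 0.06 (edgeR adjusted p = 0.536). Bmpr1a, a type I receptor for bone morphogenetic proteins, was lower by a similar amount (-0.25 ± 0.06), as were Chd2, a chromatin remodeller (-0.27 ± 0.06), and Kdm6a, an X-linked histone demethylase (-0.26 ± 0.06). On the higher side stood Nek6, a kinase of mitosis (0.42 ± 0.09), Noct, the clock-controlled phosphatase nocturnin (0.75 ± 0.17), Nt5dc3 (0.33 ± 0.08) and Odf3l2 (1.71 ± 0.40). Cyp27a1 and these 8 genes were among the 13 that DESeq2 called, with adjusted p of 0.0262 to 0.0488. DESeq2 also called Ddit4 and Slc7a8, described below, and Lrrc58 (0.40 in DESeq2).

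In females, several genes that glucocorticoids or FOXO factors are known to induce stood above the controls in 3 or 4 of the 4 treated mice, although none passed the test. Foxo1 encodes such a factor, which drives genes of fasting and muscle wasting (chromosome 3, 52268336 to 52353221, GRCm38). Control females had 17.3, 25.9, 15.2 and 22.7 CPM of Foxo1, and treated females 59.1, 136.4, 75.3 and 23.5. Treated replicates 1 to 3 lay above every control, and replicate 4 lay within them. The change was 1.86 ± 0.35 in females (3.63-fold, edgeR adjusted p = 0.175) and -0.08 ± 0.34 in males. DESeq2 (adjusted p = 0.00262) and edgeR without a filter on low counts (0.00433) called the female change. In males Foxo1 ranged from 12.4 to 23.6 CPM at 0 and from 15.4 to 19.3 at 1 mg/kg/day.

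Fkbp5, a cochaperone of the glucocorticoid receptor and a standard marker of its activity, had the same order among the treated females. Its levels were 33.7, 17.8, 39.5 and 21.9 CPM in control females and 67.7, 132.9, 118.3 and 33.3 in treated ones, with replicate 4 again among the controls. In males they were 75.4, 30.4, 38.1, 28.6 and 35.9 CPM at 0 and 26.9, 29.6, 24.4 and 29.7 at 1 mg/kg/day. One untreated male, replicate 1, was thus above the lowest of the 3 high females. The female change was 1.64 ± 0.36 (edgeR adjusted p = 0.227), and the difference between the sexes 2.23 ± 0.50 (adjusted p = 0.548).

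Trim63, the muscle ubiquitin ligase MuRF1, had 293, 264, 280 and 224 CPM in control females and 412, 619, 533 and 220.2 in treated ones. Replicate 4 was the lowest of the treated and below every control. The female change was 0.75 ± 0.23 (edgeR adjusted p = 0.542) and the male change -0.27 ± 0.22. Ddit4, an inhibitor of the growth kinase mTORC1, was higher in all 4 treated females (10.7, 37.9, 13.5 and 12.4 CPM) than in the controls (4.81, 7.04, 4.23 and 9.69). It gave 1.53 ± 0.36 in females (adjusted p = 0.295) and 0.61 ± 0.36 in males. Fbxo32, the partner ligase atrogin-1, differed by 0.47 ± 0.18 in females and -0.16 ± 0.17 in males.

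Over the atrophy and FOXO list, none of 25 tested members passed in females, 13 were higher and 0 lower at an unadjusted p under 0.05, and the median was 0.21. The glucocorticoid list, which shares 7 of those 13 genes (Fkbp5, Tsc22d3, Per1, Klf15, Cebpd, Ddit4 and Mt1), had 9 of 15 higher and 0 lower, with a median of 0.62; Glul, glutamine synthetase, and Zbtb16 were the other higher ones. Members that did not stand apart included the cell cycle inhibitor gene Cdkn1a, at 45.3, 17.5, 27.2 and 19 CPM in control and 21.3, 23.8, 23.8 and 17.1 in treated females. In males 1 of 25 was higher and 2 lower, and 1 of 15 higher and 1 lower, with medians of -0.08 and 0.02. The medians over all genes were 0.002 in females and -0.008 in males. At that threshold 2.52% of all genes were higher and 2.56% lower in females, and 2.64% and 2.46% in males. For the difference between the sexes none passed. At an unadjusted p under 0.05, 10 of the 25 and 6 of the 15 were more positive in females and 0 more negative. The share over all genes, in either direction, was 5.07%. The list medians were 0.34 and 0.69 (all genes 0.02).

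Whether genes passed in females depended on the tool, the filter and 1 library. With all 17 libraries DESeq2 called 34 genes in females, edgeR without a filter on low counts 15 and limma voom 2. With the filter, edgeR called 45 genes without female replicate 4 at 1 mg/kg/day, and 0 without any other single library. Foxo1 then gave 2.16 ± 0.26 (adjusted p = 0.00234), Slc7a8, a neutral amino acid transporter, 1.61 ± 0.22 (adjusted p = 0.00467), Odf3l2 3.89 ± 0.54 (adjusted p = 0.00526), and Trim63 0.97 ± 0.18 (adjusted p = 0.0278). Among the 45 were Hif3a (2.69 ± 0.52), Nfil3, a clock repressor (1.41 ± 0.26), and Ppp1r3c, which targets a phosphatase to glycogen (1.63 ± 0.34). Slc6a8 (-0.49 ± 0.08) and the kelch gene Kbtbd13 (-0.73 ± 0.10) were also among them. Hif3a was scarce, with 2, 3, 2 and 8 counts in control females. Treated females had 21, 37 and 15 in replicates 1 to 3 and 5 in replicate 4, and control males 13 to 36. Of the list members, 4 of 25 atrophy and FOXO genes and 2 of 15 glucocorticoid genes then passed, against 45 of all 14116 genes of that fit. No label marks replicate 4 as different from the other 3, so it belongs in the comparison. Its part in these genes' levels was not tested further. Leaving out single libraries in turn, 7 to 13 of the 25 and 6 to 10 of the 15 members were higher at an unadjusted p under 0.05. The medians were 0.205 to 0.386 and 0.39 to 0.786. Over all genes of those fits, 3.74% to 6.89% were at that level in females, in either direction. The lowest counts of both lists, 7 and 6, came without treated female replicate 2, the highest mouse for Foxo1, Fkbp5 and Trim63.

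**Figure D2:**
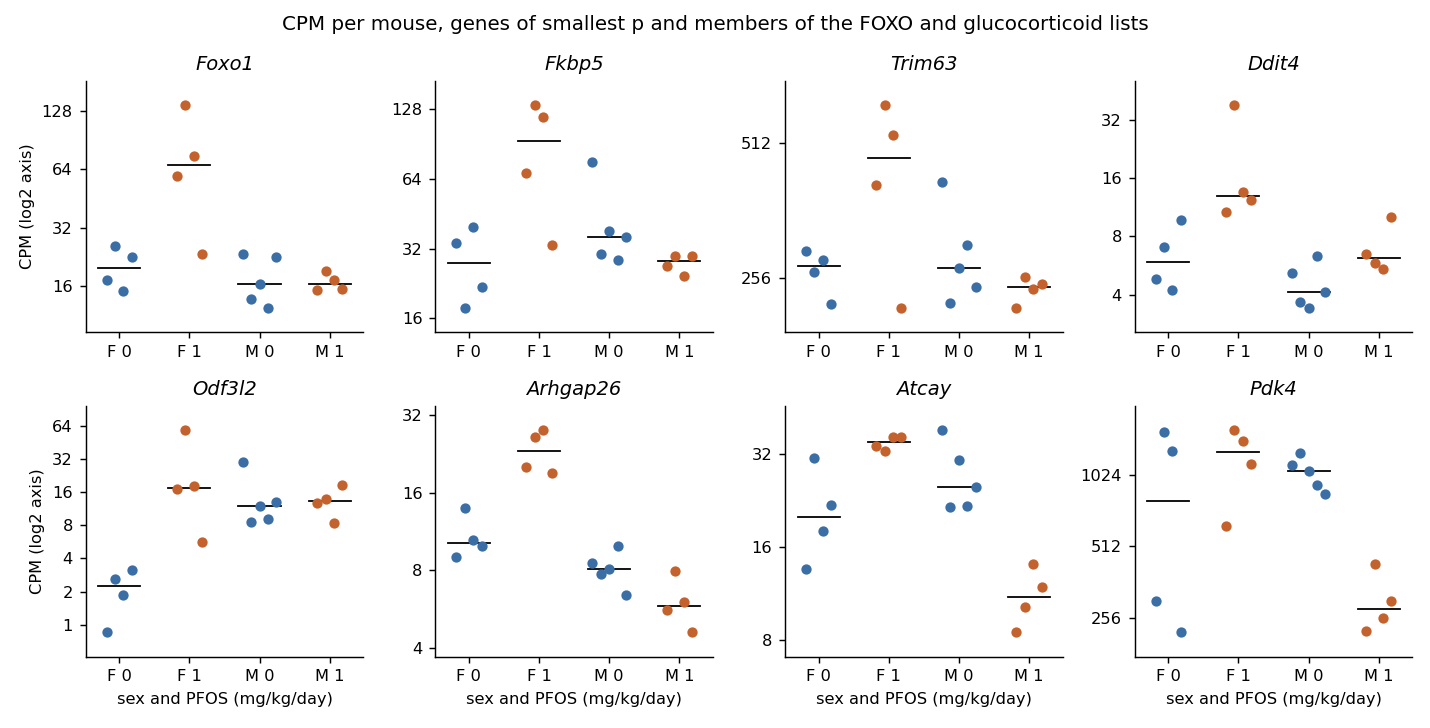
Levels of 8 genes in each of the 17 mice (CPM, log2 axis), by sex (F, M) and PFOS dose (0 in blue, 1 mg/kg/day in orange), with a bar at the group median; within a group, mice stand in order of replicate number. Treated female replicate 4 lies with the control females for Foxo1 (23.5 CPM) and Trim63 (220.2 CPM), and the male groups do not overlap for Atcay and Pdk4.

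Arhgap26, a GTPase-activating protein, had the smallest p in females and did not overlap between the doses there. It had 8.98, 14, 10.5 and 9.96 CPM in control females and 20.2, 26.3, 28.1 and 19.1 in treated ones, replicate 4 included. In males it had 6.41 to 9.92 CPM at 0 and 4.59 to 7.95 at 1 mg/kg/day, and the groups overlapped. The female change was 1.11 ± 0.18 (2.16-fold, edgeR adjusted p = 0.113), and leaving out single libraries gave 1.01 to 1.25. limma voom called it (1.14, adjusted p = 0.0022), as did DESeq2 (1.11, adjusted p = 2.83e-05) and edgeR on the 33 libraries at 0 and 1 mg/kg/day (adjusted p = 0.0257). With all 48 libraries edgeR did not call it (adjusted p = 0.236), nor with females alone (0.462). Leaving out single libraries gave 0.0123 without treated replicate 4 and 0.0508 to 0.585 without each of the others. The difference between the sexes was 1.54 with an adjusted p of 0.074. The lower side in females was led by Mkl1, an actin-sensing coactivator of muscle genes, which had 54.9, 30.6, 42.6 and 43.3 CPM in controls and 23, 20.7, 23.2 and 26 in treated females without overlap. Its change was -0.88 ± 0.18 in females (adjusted p 0.217 in edgeR, 0.00262 in DESeq2) and 0.40 ± 0.17 in males.

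Atcay, which encodes the neuronal protein caytaxin (ENSMUSG00000034958, chromosome 10, 81204508 to 81230833, minus strand, GRCm38), came nearest to the threshold of any gene, for the difference between the sexes. Control males had 38.2, 21.6, 30.6, 21.7 and 24.9 CPM and treated males 8.46, 10.2, 14.1 and 11.9. Control females had 13.6, 31, 18 and 21.9 CPM and treated females 33.9, 32.7, 36.2 and 36.2. The groups did not overlap in either sex, and the directions were opposite. The change was -1.29 ± 0.21 in males (2.45-fold lower, edgeR adjusted p = 0.176) and 0.72 ± 0.22 in females (adjusted p = 0.501), and the sex difference was 2.02 ± 0.30 (edgeR adjusted p = 0.0535). DESeq2 (adjusted p = 4.84e-07), limma voom (0.0142), edgeR without a filter on low counts (0.000599) and edgeR with DESeq2 size factors (0.0478) each called this difference. Other settings did not call it: the adjusted p was 0.54 with all 48 libraries and 0.252 with the replicate block. Leaving out single libraries gave 0.00493 to 0.23, on both sides of the threshold. Without the 2 males with sperm cell transcripts the sex difference of Atcay was 1.88 ± 0.35 (edgeR adjusted p = 1) and its male change -1.16 ± 0.27. The gene overlaps Atcayos on the other strand (81194609 to 81210877), and since the use of strand in counting is not given, reads in the shared stretch cannot be told apart.

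Pdk4, the kinase that shuts pyruvate out of the citric acid cycle (chromosome 6, 5483351 to 5496309, GRCm38), was lower in every treated male. Males had 1131, 1273, 1068, 936 and 854 CPM at 0 and 224, 431, 254 and 302 at 1 mg/kg/day, with a wide gap between the groups. Females ranged from 222 to 1559 CPM at 0 and from 623 to 1591 at 1 mg/kg/day and overlapped fully. The change was -1.80 ± 0.43 in males (3.47-fold lower, edgeR adjusted p = 0.973) and 0.50 ± 0.46 in females, and the sex difference 2.30 ± 0.63 (adjusted p = 0.806). With the males fitted alone edgeR gave -1.80 with an adjusted p of 0.00986, the only gene called, and without a filter on low counts, over the 17 libraries, -1.79 with 0.0492. DESeq2 and limma voom did not call it (0.143 and 0.751). Without the 2 males with sperm cell transcripts Pdk4 gave -1.61 ± 0.56 in males (edgeR adjusted p = 1). Ucp3, an uncoupling protein of the inner mitochondrial membrane regulated like Pdk4 in fasting, had 130 to 266 CPM in control males and 63 to 116.4 in treated males, again without overlap (-1.11 ± 0.30, edgeR adjusted p = 0.973), and -1.04 ± 0.40 without those 2 males. In females Ucp3 gave 0.32 ± 0.32.

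Across genes, the direction of change in females did not follow that in males. Over all 13914 genes the sign was the same for 49.6%, about the share that unrelated signs would give. Such a share does not tell responses that differ by sex from no response in either. Among the 706 genes at an unadjusted p under 0.05 in females it was the same for 49.3%, and of 35 genes at that level in both sexes 17 had the same sign. No gene passed the sex difference, as given above, and the median interval of that difference reached 0.50 to either side on the log2 scale.

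Adipocyte genes stood highest in a few treated mice. Adipoq, the fat cell hormone adiponectin, had 4.67, 3.36, 6.38 and 21.6 CPM in control females and 73.8, 2.25, 3.23 and 7.48 in treated females. Control males had 4.88, 0.08, 2.99, 0.744 and 14.1 CPM and treated males 66.2, 30, 14.1 and 7.63. One mouse of each treated group, replicate 1 of both sexes, exceeded all the rest, and the groups overlapped in both sexes. The averaged change was 1.97 ± 0.72 (edgeR adjusted p = 0.907). None of the 18 tested adipocyte markers passed. At an unadjusted p under 0.05, 12 were higher (over all genes 2.85%) and 0 lower. Within males 12 of the 18 were higher (over all genes 2.64%), with a median of 1.97. Within females 1 was (over all genes 2.52%), with a median of 0.91. None passed for the difference between the sexes, where 1 was more positive in females and 1 more negative at that threshold. The averaged median was 1.49, and Pck1, the glucose and glycerol synthesis enzyme PEPCK, was highest at 2.63 ± 0.80. In a whole-muscle library more fat cells and more RNA per fat cell cannot be told apart. Treated male replicate 1 is also 1 of the 2 males with sperm cell transcripts (290 counts over the 9 genes). Carry-over of other tissue into that library was not tested.

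As a measure per library, the mean log2 CPM of the adipocyte list ran from 2.89 to 4.51 in control females and 2.59 to 5.57 in treated females, and from 1.71 to 3.81 and 3.21 to 5.45 in males. The averaged difference was 0.93 (exact permutation within sex, two-sided, p = 0.0893, adjusted over 18 library measures 0.57). None of the 18 measures, which included total counts, genes detected and the marker lists of other cell types, passed. Adipoq and Plin1 were at 0 in no library, while Adrb3 was at 0 in 1, Cidea in 3 and the brown fat gene Ucp1 in 12 of 17. Without replicate 1 of both treated groups, a choice made after seeing the data, the list's median was 0.34 and 1 of 17 tested members was higher at an unadjusted p under 0.05; within males it was 1.301, with 7 of 17 higher. Female replicate 1 alone mattered most within females, where the median went from 0.91 to -0.37 without it.

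Genes of fat synthesis and Cyp2e1 were highest in the same mice. Fasn, fatty acid synthase, had 15.2, 9.78, 11.58 and 107.6 CPM in control females and 242, 14.3, 15.7 and 42.8 in treated females. In males it had 16.5, 8.63, 14.8, 7.69 and 34.5 CPM at 0 and 224, 53.8, 27 and 21.1 at 1 mg/kg/day. The same 2 mice were highest, and the averaged change was 1.72 ± 0.66 (edgeR adjusted p = 0.924). Of 21 tested lipid synthesis genes none passed. At an unadjusted p under 0.05, 7 were higher (over all genes 2.85%) and 0 lower. Within males 7 were higher and 1 lower (over all genes 2.64% and 2.46%), with a median of 0.47. Within females 0 were higher and 0 lower, with a median of 0.22. The averaged median of 0.51 was 0.03 without replicate 1 of both treated groups. Cyp2e1, a P450 enzyme of liver and fat, had 1.08 to 30.2 CPM in controls and 8.06 to 110 in treated mice (1.99 ± 0.59, edgeR adjusted p = 0.825), with its highest values, 110 and 89.5 CPM, in the same pair. The part of fat in these values was not tested beyond leaving those mice out. The male of the pair is the one with sperm cell transcripts named above.

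**Figure D3:**
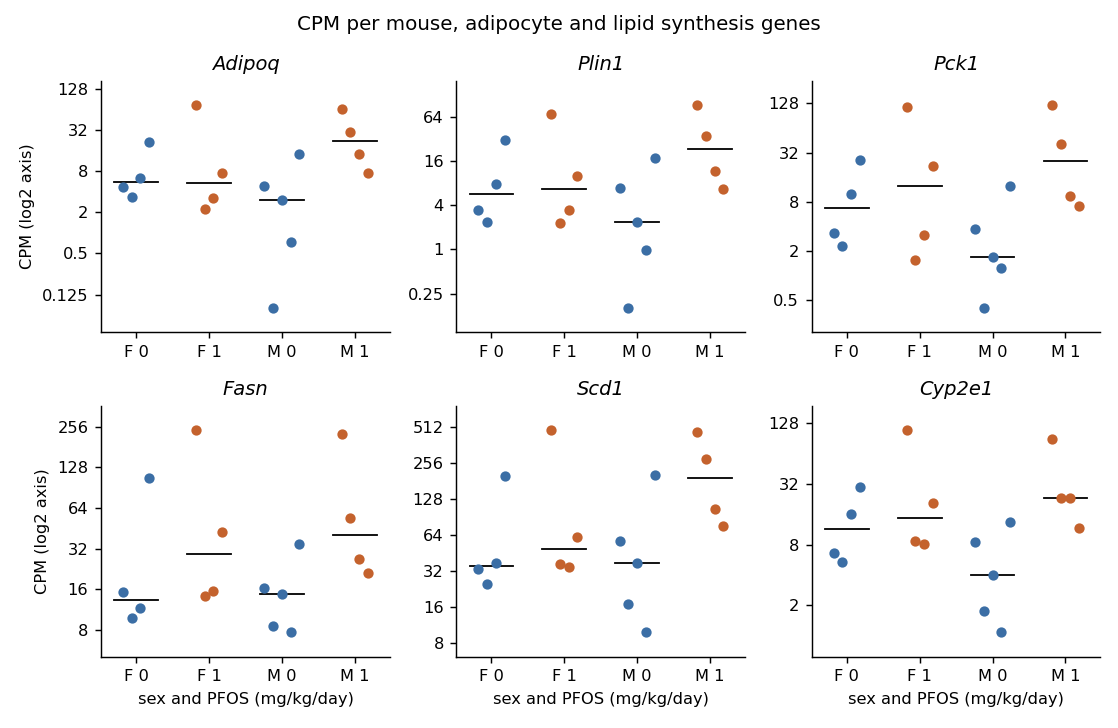
Levels of 6 genes of fat cells and lipid synthesis in each of the 17 mice (CPM, log2 axis), drawn as in the plot of leading genes. Replicate 1 of the treated females and of the treated males is the highest mouse for Adipoq (73.8 and 66.2 CPM), Fasn (242 and 224 CPM) and Cyp2e1 (110 and 89.5 CPM).

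Heat shock genes were high in a single mouse. Hspa1b, an inducible HSP70, had 91.5 CPM in male replicate 4 at 1 mg/kg/day and 0.424 to 5.33 CPM in the other 16 mice, and the stress factor gene Atf3 had 31.7 against 0.165 to 3.3. This is the library with the most transcripts of sperm cells. With it, 7 of 17 heat shock genes were higher in males at an unadjusted p under 0.05 (over all genes 2.64%). Without it, 1 was. Ifi27l2a, an interferon-inducible gene, was higher in treated males, at 51.2, 32.3, 11.9 and 5.82 CPM against 4.41, 0.399, 2.64, 0.579 and 4.81 in controls, without overlap (3.27 ± 0.83, edgeR adjusted p = 0.973; 3.08 ± 0.94 without the 2 males with sperm cell transcripts), and the 4 treated males stood in the order of their adipocyte level. The interferon list gave 2 of 26 higher and 0 lower at an unadjusted p under 0.05 in males, with a median of 0.22.

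Most other gene groups stayed near their control level. Of 47 lists with tested members, 35 had a sexes-averaged median within 0.1 of 0 on the log2 scale, and in none did a member pass. Over all lists 918 genes were tested, of which 791 had an interval within 2-fold and 674 within 1.5-fold. The 85 cytosolic ribosome genes had a median of 0.006, with 84 intervals within 2-fold. Among 46 proteasome genes the median was 0.01, and all intervals lay within 2-fold. All 22 autophagy genes lay within 1.5-fold. Slow fibre genes could not be judged. Myh7, the slow myosin, ran from 0 to 757 CPM among the 17 mice and was low and high in both doses, the list's median was -0.42, and 2 of its 18 intervals lay within 2-fold. Of 19 fast fibre genes, 15 had an interval within 2-fold and the median was 0.02. At an unadjusted p under 0.05, 1 was lower and 0 higher. The myosin gene Myh2 was lowest of these at -0.805 and ran from 93.2 to 2629 CPM among the mice.

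**Figure D4:**
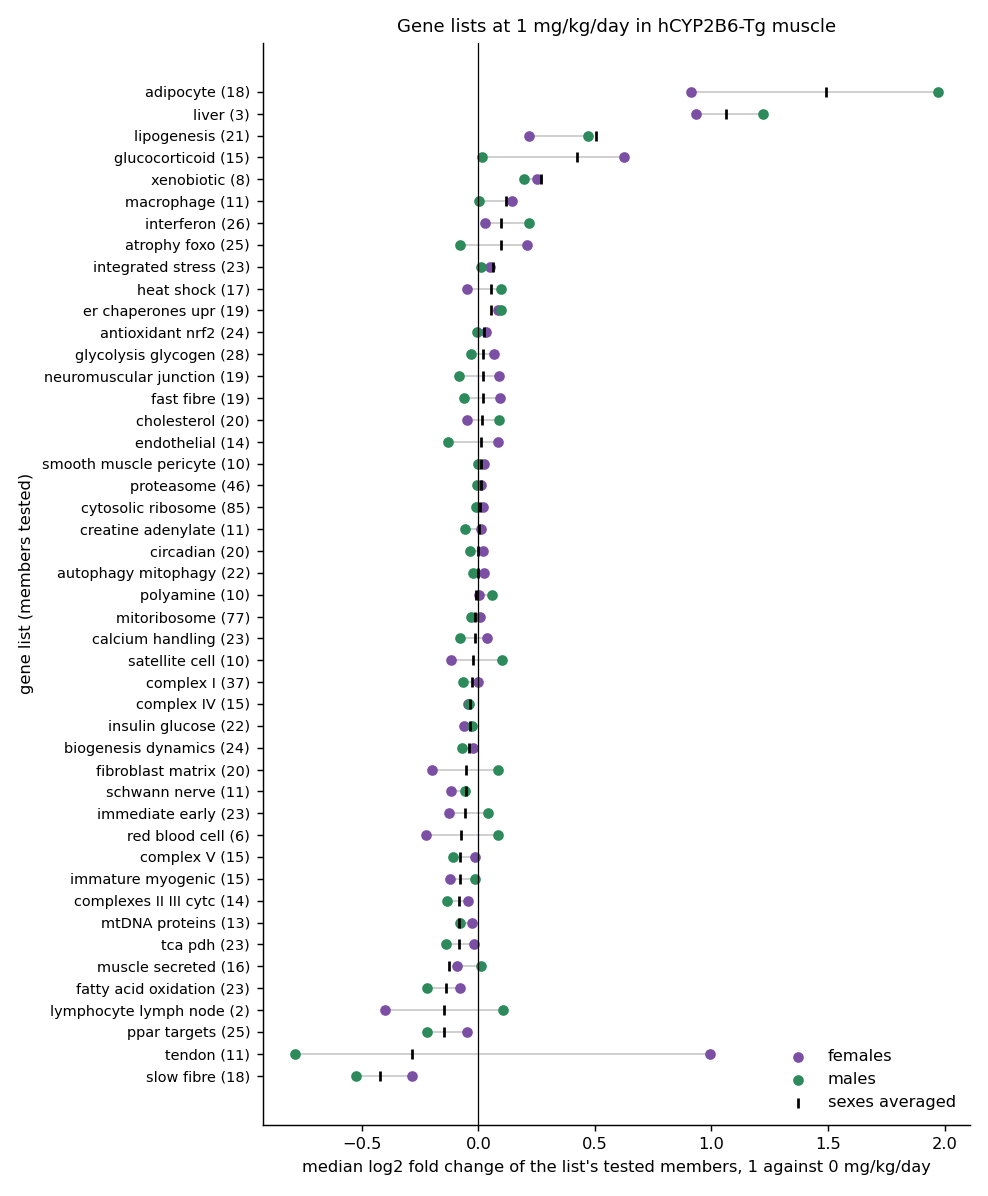
Median log2 fold change at 1 against 0 mg/kg/day of the tested members of 46 gene lists, in females (purple), in males (green) and averaged over the sexes (black tick), with the number of tested members in brackets. Most lists lie near 0; the adipocyte list (1.49 averaged) lies farthest above it, and the glucocorticoid list has a median of 0.62 in females and 0.02 in males.

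Genes known from earlier analysis of these data to lead the response to 10 mg/kg/day were read at both doses in 1 fit of all 48 libraries. In that fit 10 against 0 mg/kg/day called 5907 of 15583 genes (37.9%) and 10 against 1 mg/kg/day 5505 (35.3%), while 1 against 0 called 0 genes, with 689 at an unadjusted p under 0.05. The 2 doses share their 9 controls, so their values are set side by side and not correlated. Of the 33 leaders, 32 passed at 10 against 0, which is how they were chosen, and 24 passed at 10 against 1. None passed at 1 against 0, where the median was 0.02.

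Contractile and matrix genes that were lowest at the high dose had smaller sexes-averaged estimates at the low dose, that of Actc1 with a wide interval. Actc1, cardiac actin, gave -0.31 ± 0.50 at 1 mg/kg/day, with an interval from -1.32 to 0.70, and -4.31 at 10. Casq1, the calcium-binding protein of the sarcoplasmic reticulum, gave 0.00 and -1.70, Myl1, a fast myosin light chain, -0.02 and -1.68, and Col3a1, a collagen of connective tissue, -0.18 and -2.59. In the fit of 17 libraries Col3a1 gave -0.67 in females at 1 mg/kg/day, and its sex difference was -0.97. Neither reached an unadjusted p under 0.05. Of the 17 leaders lower at 10 mg/kg/day, 16 had an interval within 2-fold at 1 mg/kg/day, and they ranged from -0.47 (Aplnr) to 0.13 (Kcng4). Among the 15 leaders higher at 10 mg/kg/day, 7 had an interval above 0 at 1 mg/kg/day. Over all genes of that fit, 393 of 15583 were higher at an unadjusted p under 0.05. These leaders were chosen against the same controls, and controls that lie low raise both values. The count of 7 is therefore no test of the low dose. Ddit4 gave 1.07 and 3.52, and Pik3r1, the regulatory subunit of phosphatidylinositol 3-kinase, 0.38 and 2.19. The adipocyte genes Adipoq (1.97 and 2.76), Retn (2.21 and 3.04) and Cfd (2.21 and 3.15) did not pass for 10 against 1, where they gave 0.79, 0.83 and 0.94 (edgeR adjusted p of 0.384, 0.35 and 0.328). Pik3r1 in females had 35.6, 36.3, 36.5 and 43 CPM at 0 and 58.5, 86.5, 84.8 and 54.1 at 1 mg/kg/day, without overlap (0.91 ± 0.21, adjusted p = 0.253). In males it gave -0.14 ± 0.20.

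**Figure D5:**
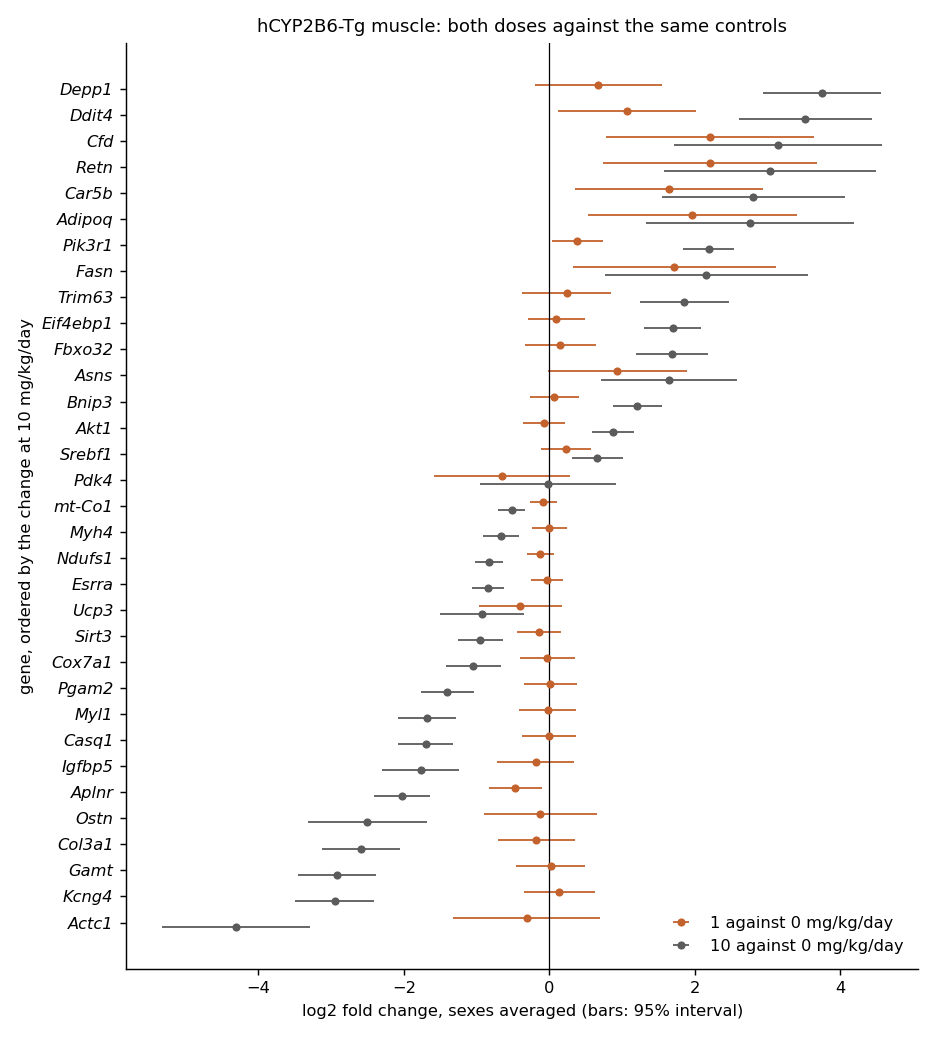
Log2 fold change, averaged over the sexes, of the 33 genes known to lead at 10 mg/kg/day, at 1 against 0 (orange) and at 10 against 0 mg/kg/day (grey) in hCYP2B6-Tg mice, with 95% intervals from the fit of 48 libraries. Both comparisons use the same 9 controls. Casq1 and Myl1 lie at or near 0 at the low dose (0.00 and -0.02), and Actc1 lies at -0.31 with a wide interval that includes 0.

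Whether the low dose acted differently in hCYP2B6-Tg than in Cyp2b-null mice was tested in the same fit, and no gene passed. edgeR called 0 of 15583 genes (0%) for the difference between genotypes, with 494 at an unadjusted p under 0.05 and a smallest adjusted p of 1. In Cyp2b-null mice 1 against 0 mg/kg/day called 0 genes (0%), with 396 at an unadjusted p under 0.05. The sign of the change was the same in both genotypes for 53.1% of genes. Foxo1 gave 0.89 in hCYP2B6-Tg and -0.01 in Cyp2b-null mice, Fkbp5 0.52 and 0.23, and Ddit4 1.07 and -1.08, each with an adjusted p of 1 for the difference.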

How the data were processed

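Raw read counts per gene were used as deposited by the authors, 1 table of 54532 genes. The submitters' processing notes name HISAT2 and GRCm39; the sources used here give neither the counting program nor its use of strand. Gene coordinates equal those of GENCODE vM21 (GRCm38) for 98.3% of shared identifiers and are given as in the table. The 17 libraries were fitted with edgeR 4.0.16 in R 4.3.3 (filterByExpr, TMM, quasi-likelihood, 1 coefficient per sex and dose, 13 residual degrees of freedom). The averaged change weights the sexes equally. Intervals are Wald 95% intervals from the same fit, and levels are CPM on TMM-scaled totals. Adjustment is Benjamini-Hochberg over all genes tested, threshold 0.05. DESeq2 1.42.0 and limma 3.58.1 were alternatives. No 2 replicates agreed within sampling noise (28 pairs, lowest chi-square per degree of freedom 8.38). The fits were tested on simulated data. Named by rule were, as none passed, the genes of smallest p (up to 5 in each direction per comparison) and members of the PPAR, xenobiotic and high-dose lists; other genes were named after their values were seen. Alternatives changed the scaling, filter, tool, libraries fitted and replicate block. Members and lists were chosen with earlier results of these data known. Some genes are not reported here.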

Additional observations from a re-analysis of the deposited data

Results flagged for a closer look

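In 188 combinations of a measure or gene with a group of 4 or 5 mice, 19 had a single mouse far from the rest of its group by Dixon's criterion; chance alone marks about 1 in 20 such groups. Among library measures, female replicate 3 at 1 mg/kg/day had the lowest total of its group, about 12400000 counts. Male replicate 1 at 1 mg/kg/day was apart in macrophage markers (mean log2 CPM 1.17, lowest), fibroblast and matrix markers (4.49, lowest) and liver markers (0.581, highest). Female replicate 4 at 0 mg/kg/day was apart in lymphocyte and lymph node markers (2.75, the library with Glycam1) and in fast fibre genes (11.98). Female replicate 4 at 1 mg/kg/day was highest in smooth muscle and pericyte markers (4.02) and in satellite cell markers (2.89), and male replicate 5 at 0 mg/kg/day in nerve markers (2.58).

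Among genes, male replicate 1 at 0 mg/kg/day was highest of the untreated males for Fkbp5 (75.4 CPM), Odf3l2 (30.3 CPM) and Cyp27a1 (118.04 CPM). Female replicate 4 at 1 mg/kg/day was lowest of its group for Nek6 (11.97 CPM). Female replicate 4 at 0 mg/kg/day was apart for Kdm6a (29.1 CPM) and Pik3cd (36 CPM), female replicate 3 at 0 mg/kg/day for Slc10a7 (4.51 CPM), and male replicate 3 at 0 mg/kg/day for Bmpr1a (111.4 CPM). Female replicate 1 at 1 mg/kg/day was highest for Tusc5, a gene of fat cells (5.62 CPM). Male replicate 2 at 1 mg/kg/day was lowest for Pik3cd (31.3 CPM).

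Most sperm cell genes fell below the filter and so outside the tests, but the 9 named in the report summed to 3874 counts in male replicate 4 and 290 counts in male replicate 1 at 1 mg/kg/day. The control libraries of both sexes had at most 7.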

How the results depend on the processing

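The sexes-averaged count of called genes was 0 in every alternative run except DESeq2, which called 13. In females it was 15 without a filter on low counts, 34 with DESeq2, 2 with limma voom and 1 with the 33 libraries at 0 and 1 mg/kg/day, and leaving out 1 library gave 0 to 45. In males it was 15 without a filter, among them Prm1, Prm2, Tnp2, Crisp2 and Ropn1l, 1 with DESeq2, 2 with all 48 libraries (Fhl4 and Ropn1l), 1 with males alone, and 0 to 1 leaving out 1 library. For the sex difference it was 1 with DESeq2 size factors, 5 without a filter, 12 with DESeq2, 2 with limma voom and 3 with the 33 libraries, and 0 to 8 leaving out 1 library. Without the 2 males with sperm cell transcripts and without a filter, the calls were 38 in females, 0 in males and 2 for the sex difference (chosen after seeing the data). The median half-width of the averaged interval was 0.411 without a filter, 0.236 with a stricter one, 0.297 with 48 libraries, 0.227 with limma voom and 0.246 to 0.27 leaving out 1 library. The cause of these shifts was not tested.

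The replicate numbers do not pair the mice: deviations of same-numbered mice correlated by -0.143 to 0.143 and no mouse correlated best with its own number. With the replicate number as a block, 0 genes were called in each of the 4 comparisons.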
